A study of Mus musculus with 2 samples.

Results

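The genes described here are 10 receptors that costimulate or restrain lymphocytes, taken by symbol from the 22032 genes of a table of unique molecular identifiers (UMIs, each standing for 1 captured transcript). They are Icos, Cd28, Ctla4, Pdcd1, Lag3, Tigit, Klrg1, Tnfrsf4, Tnfrsf9 and Tnfrsf18, and all 10 have a row in the table. Their levels were compared across barcodes sorted into 5 gates by UMIs of a pair of lineage genes, and across the barcode suffixes of the table. Icos stood at 603 CPM (its UMIs per 1000000 UMIs of the gate) in barcodes with Rora and Gata3 (the ILC2 gate), against 2.76 CPM in barcodes with Spi1 and Bcl11a (the progenitor gate).

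ICOS, CD28, CTLA-4 and PD-1 belong to the CD28 family of immunoglobulin-like receptors. ICOS and CD28 add a positive signal through phosphoinositide 3-kinase, while CTLA-4 and PD-1 dampen activation. LAG-3, TIGIT and KLRG1 are inhibitory receptors that bind ligands on antigen-presenting or epithelial cells. OX40 (Tnfrsf4), 4-1BB (Tnfrsf9) and GITR (Tnfrsf18) are receptors of the tumour necrosis factor family that recruit TRAF adaptors and feed into NF-kB. Outside alpha-beta T cells, ICOS is known for its part in the survival and function of group 2 innate lymphoid cells (ILC2), KLRG1 marks mature ILC2 and NK cells, and PD-1 has been described on ILC precursors and on gamma-delta T cells.

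The cells were DN1 cells sorted from embryonic thymus of 5x polychromILC mice, a strain with several reporter alleles that both samples share. The labels name 1 sample at E15.5 and 1 at E19.5, each a 10x Genomics 3' v3 library, and do not say how many embryos went into either. The table holds 6057 barcodes, 2182 ending in suffix 1 and 3875 in suffix 2. No label ties a suffix to a stage, so the suffixes are named by their number and are not read as ages. With 1 library per stage there is no replicate, so no test was made, and the 95% intervals below cover counting error only. The extraction label describes a lysis that yields nuclei, so these may be nuclei rather than whole cells.

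After filtering, 5416 barcodes remained, with 713 to 113167 UMIs each and medians of 14858 in suffix 1 and 13687.5 in suffix 2. The suffixes had 25 barcode sequences in common, 3 of them among the kept barcodes. A gate required at least 1 UMI of both its genes, and the 1148 barcodes that passed more than 1 gate were kept apart, as were the 986 that passed none. The ILC2 gate then held 1115 barcodes (196 of suffix 1, 919 of suffix 2). The NK/ILC1 gate (Xcl1 and Nkg7) held 1144 (679 and 465), the progenitor gate 764 (235 and 529), the DN2/DN3 gate (Cd3g and Myb) 212 (88 and 124), and the gamma-delta T gate (Cd3d and Sox13) 47 (1 and 46). Median UMIs per barcode were 11955, 10810, 30401.5, 18963 and 14047 in the same order.

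The gate names were checked against marker genes that the gates did not use. The 8 ILC2 markers, which include Il1rl1 and Il13, summed to 800.3 CPM in the ILC2 gate and to at most 97.3 CPM in another gate. The 10 NK/ILC1 markers summed to 5314 CPM in the NK/ILC1 gate, and the 9 progenitor markers to 727 CPM in the progenitor gate. Of the 8 gamma-delta T markers listed, 6 are in the table, without the T-cell receptor genes Trdc and Tcrg-C1. These 6 reached 1610 CPM in their gate and 318 to 678 CPM in the others. The gamma-delta T and DN2/DN3 gates were mixed. The former also held DN2/DN3 markers at 1087 CPM and NK/ILC1 markers at 773 CPM, mostly Gzma, with 6 of the 10 NK/ILC1 markers at 0. For the DN2/DN3 gate, its 10 markers summed to 1362 CPM, but it also held alpha-beta thymocyte markers at 508 CPM, with Cd8b1 at 169 CPM. Its NK/ILC1 markers were at 1340 CPM, mostly Gzma (1132 CPM). The ILC2 gate of suffix 1 held NK/ILC1 markers at 1043 CPM, against 77.0 CPM in suffix 2. Over both suffixes the ILC2 gate also held DN2/DN3 markers at 521 CPM, with Bcl11b at 160 CPM. Lymphoid tissue inducer markers were highest in the ILC2 gate at 150 CPM, with Ccr6 at 102 CPM. They summed to 130 CPM in the gamma-delta T gate and to 6.72 to 46.8 CPM in the other gates. Foxp3, the factor that defines regulatory T cells, had 2 UMIs in the ILC2 gate, 1 in the progenitor gate and 0 in the other gates. Of the same list, Ikzf2 was 102 to 292 CPM across the gates and Ikzf4 1.35 to 5.49 CPM.

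Of the 10 receptors, 3 lie in a row on chromosome 1 of GRCm38 (GENCODE M21), all on the plus strand: Cd28 at chr1:60716800-60773359, Ctla4 at chr1:60887000-60915832 and Icos at chr1:60977927-61000320. Pdcd1 lies further along at chr1:94038305-94052553 on the minus strand. Tnfrsf4 (chr4:156013843-156016612) and Tnfrsf18 (chr4:156026164-156028895) are neighbours on the plus strand of chromosome 4, 9.551 kb apart, and Tnfrsf9 is at chr4:150914562-150946102, also on the plus strand. Lag3 (chr6:124904361-124911705), Klrg1 (chr6:122270596-122282882) and Tigit (chr16:43648867-43664146) are on the minus strand. RefSeq promoter sequences (GRCm38.p6) were present for 6 of the 10. The stretches before the starts of Pdcd1, Tnfrsf9 and Tnfrsf18 are shown as examples of receptors whose highest gate, described below, was the gamma-delta T, NK/ILC1 and ILC2 gate in turn. Each covers up to 250 bases and stops where an annotated exon begins, is written 5' to 3' on the gene's strand, and has motif matches in capitals.
Pdcd1, chr1:94052554-94052803, minus strand: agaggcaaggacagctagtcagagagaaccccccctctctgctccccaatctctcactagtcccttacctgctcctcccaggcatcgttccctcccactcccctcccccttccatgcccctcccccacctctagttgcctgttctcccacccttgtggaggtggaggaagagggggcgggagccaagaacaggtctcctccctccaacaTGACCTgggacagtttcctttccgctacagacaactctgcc
Tnfrsf9, chr4:150927749-150927917, plus strand: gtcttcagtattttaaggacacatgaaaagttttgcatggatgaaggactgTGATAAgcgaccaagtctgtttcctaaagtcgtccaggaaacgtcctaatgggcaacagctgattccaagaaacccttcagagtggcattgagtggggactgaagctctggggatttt
Tnfrsf18, chr4:156026072-156026163, plus strand: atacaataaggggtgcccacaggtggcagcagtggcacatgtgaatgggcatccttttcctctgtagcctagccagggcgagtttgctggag
Motifs were searched on both strands of the 250 bases before each of the 32851 RefSeq starts. A GATA motif (AGATAA or TGATAA) was found in 16.6% of all these windows, a ROR motif (AGGTCA) in 14.02%, an AP-1 motif (TGANTCA) in 6.75% and an NF-kB motif (GGGANNTCC) in 3.59%. The inner Tnfrsf9 start had a GATA match (TGATAA), and in the bases left out above it had an NF-kB match (GGGATTTCC and its overlapping reverse) and an AP-1 match (TGAGTCA). The outer Tnfrsf9 start and the Tnfrsf18 start had none of the 4. The Pdcd1 window had a ROR match (TGACCT, the motif read on the other strand), 41 bases before the start. Libraries of 3' ends do not show which start was used.

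Icos was concentrated in the ILC2 gate. Of its 16421 UMIs in kept barcodes, 24.2% were in barcodes of no gate and 13.3% in barcodes of more than 1 gate. Of the 10278 in barcodes that passed 1 gate, 90.9% were in the ILC2 gate. The level was 603 CPM there (591 to 616), with 528 CPM in suffix 1 and 624 CPM in suffix 2. It was 67.6 CPM (50.2 to 89.1) in the gamma-delta T gate and 64.1 CPM (57.0 to 71.8) in the DN2/DN3 gate, which did not differ beyond counting error. The NK/ILC1 gate followed at 37.9 CPM (34.7 to 41.3) and the progenitor gate was lowest at 2.76 CPM (2.14 to 3.51). Among gates with at least 20 barcodes, the ILC2 gate was highest and the progenitor gate lowest within each suffix. The level of suffix 2 was 1.10 to 1.29 times that of suffix 1 in the 4 gates with both.

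**Figure D1:**
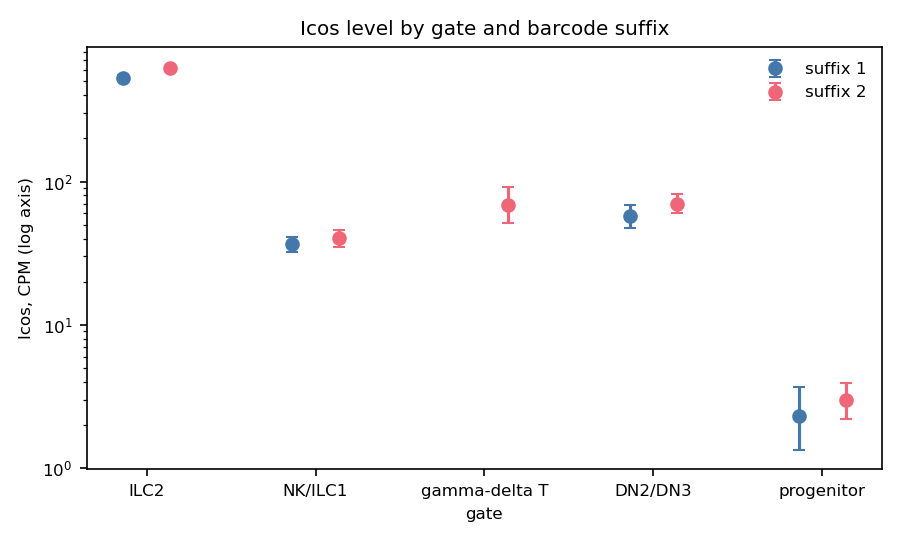
Icos level in CPM (log axis) in each gate, with 1 point per barcode suffix and 95% Poisson bars that cover counting error only. The ILC2 gate sits at 528 and 624 CPM and the progenitor gate at 2.30 and 2.97 CPM. The gamma-delta T gate has a point for suffix 2 only, since suffix 1 had 1 barcode.

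Depth differed between gates, so each barcode was also thinned to 6970 UMIs. After thinning, Icos was detected in 91.4% of the ILC2 gate (89.5 to 93.0%, exact binomial), 31.1% of the gamma-delta T gate (18.2 to 46.6%), 21.4% of the NK/ILC1 gate, 16.6% of the DN2/DN3 gate and 1.85% of the progenitor gate (1.01 to 3.08%). Without thinning these shares were 95.9%, 42.6%, 29.98%, 28.3% and 7.85%. The progenitor gate had a median of 30401.5 UMIs per barcode against 11955 in the ILC2 gate. The part of free RNA in its low share was not tested. In the ILC2 gate the median barcode had 4 Icos UMIs, and 32.5% had 6 or more. The share without a UMI was 22.8% in suffix 1 and 5.59% in suffix 2. The 92 ILC2-gate barcodes without Icos held NK/ILC1 markers at 1678 CPM, against 166 CPM in the 973 with Icos. The 8 ILC2 markers differed in opposite directions by suffix, at 187 CPM without Icos against 704 CPM with it in suffix 1 and 981 against 899 CPM in suffix 2. NK/ILC1 markers were higher without Icos in suffix 1 (2950 against 801 CPM) and suffix 2 (562 against 53.6 CPM). Their part in the missing Icos was not tested.

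**Figure D2:**
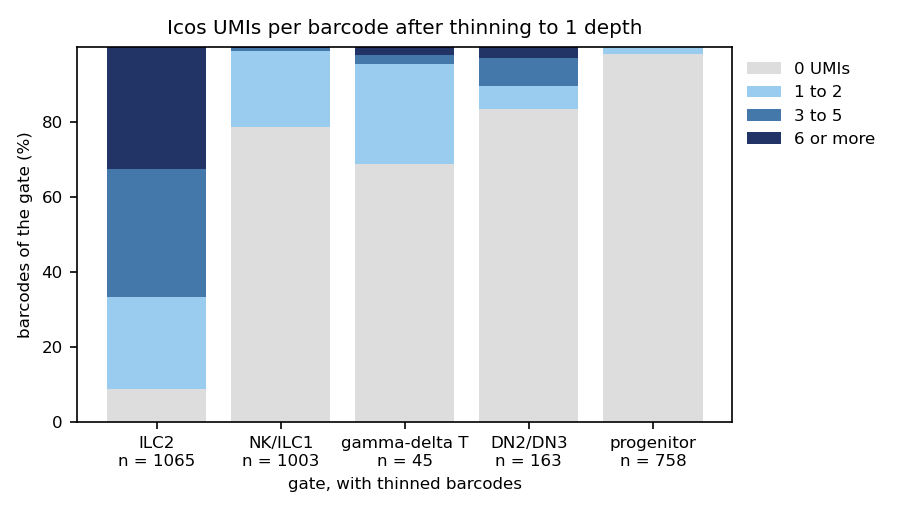
Share of barcodes in each gate (percent) by their number of Icos UMIs after thinning to 6970 UMIs, with the number of thinned barcodes under each bar. Most of the ILC2 gate had 3 or more UMIs, while 78.6% of the NK/ILC1 gate and 98.2% of the progenitor gate had none.

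The Icos signal of the DN2/DN3 gate came from few barcodes. After thinning, 17 of its 163 barcodes had 3 or more Icos UMIs and held 88.0% of its Icos UMIs. These 17 held ILC2 markers at 658 CPM and no UMI of the alpha-beta thymocyte markers. The 136 barcodes without Icos held ILC2 markers at 54.9 CPM, DN2/DN3 markers at 1448 CPM and alpha-beta thymocyte markers at 514 CPM. In the NK/ILC1 gate the signal was spread more thinly, since 203 of the 215 positive barcodes had 1 or 2 UMIs. The 12 with 3 or more had ILC2 markers at 514 CPM, against 78.5 CPM in barcodes without Icos.

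Against the progenitor gate, Icos was higher in the ILC2 gate by 7.77 on the log2 scale (7.43 to 8.14) and in the DN2/DN3 gate by 4.54 (4.15 to 4.94). Its log2 ratio to the ILC2 gate was -3.99 (-4.12 to -3.86) in the NK/ILC1 gate and -3.16 (-3.59 to -2.76) in the gamma-delta T gate. The first pair of ratios shares the progenitor barcodes and the second pair the ILC2 barcodes, so they are not independent. With barcodes of more than 1 gate kept, the first ratio was 6.44, and with gates at 2 UMIs the last was -4.94.

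Cd28, the main costimulatory receptor of naive T cells, followed another order. It stood at 30.6 CPM (25.8 to 36.1) in the DN2/DN3 gate, 14.1 CPM in the NK/ILC1 gate, 2.78 CPM in the ILC2 gate, 2.70 CPM (2 UMIs) in the gamma-delta T gate and 0.660 CPM in the progenitor gate. The ILC2 and gamma-delta T gates could not be told apart at this depth. Suffix 2 was higher than suffix 1 in the DN2/DN3 gate (45.4 against 14.1 CPM) and in the NK/ILC1 gate (21.8 against 8.78 CPM), and lower in the ILC2 gate (2.06 against 5.35 CPM). In the DN2/DN3 gate the 16 thinned barcodes with a Cd28 UMI held alpha-beta thymocyte markers at 1802 CPM, against 294 CPM in the 147 without. Cd8b1, which encodes a chain of the CD8 coreceptor, was 771 against 88.8 CPM in the same barcodes. That list summed to 848 CPM in suffix 2 of this gate and to 126 CPM in suffix 1, where Cd8b1, Cd8a and Cd4 were at 0. The part of the alpha-beta transcripts in the Cd28 difference was not tested.

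Ctla4, which competes with CD28 for its ligands, was rare. It had 107 UMIs in kept barcodes, of which 29 fell in the DN2/DN3 gate, at 6.21 CPM (4.16 to 8.93), with 5.92 CPM in suffix 1 and 6.48 CPM in suffix 2. The gamma-delta T gate had 4 UMIs, 3 of them in its single barcode of suffix 1. The ILC2 gate had 1 UMI, the NK/ILC1 gate 3 and the progenitor gate 3. In the DN2/DN3 gate Ctla4 was 50.2-fold the level of the progenitor gate (log2 ratio 5.65, 3.96 to 8.01), a ratio that rests on the 3 UMIs of the latter.

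Pdcd1, which encodes PD-1, was highest in the gamma-delta T gate at 142 CPM (116 to 172). It was 18.0 CPM (16.0 to 20.3) in the ILC2 gate, 15.0 CPM (11.7 to 19.0) in the DN2/DN3 gate, 5.48 CPM in the NK/ILC1 gate and 0.989 CPM in the progenitor gate. The ILC2 and DN2/DN3 gates did not differ beyond counting error. All 105 Pdcd1 UMIs of the gamma-delta T gate were in suffix 2, which held 46 of its 47 barcodes. After thinning, 20 of its 45 barcodes (44.4%) had a UMI, against 7.89% of the ILC2 gate, 7.98% of the DN2/DN3 gate, 2.39% of the NK/ILC1 gate and 1.19% of the progenitor gate. Without thinning the shares were 53.2%, 11.4%, 11.8%, 3.93% and 2.88%. Within the gamma-delta T gate 4 barcodes with 3 or more UMIs gave 56.0% of the thinned UMIs, and the highest had 14. Blk, a kinase gene of gamma-delta T cells that make interleukin 17, was at 273 CPM in the Pdcd1-positive barcodes and 115 CPM in the others.

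Because many barcodes with Cd3d and Sox13 also passed another gate, Pdcd1 was followed through the combinations of gates with at least 30 barcodes. It was 118 CPM (96.9 to 142) in the 55 barcodes of the ILC2, gamma-delta T and DN2/DN3 gates together. The 77 barcodes of the gamma-delta T and DN2/DN3 gates had 68.5 CPM, and the 106 of the ILC2 and DN2/DN3 gates 54.5 CPM. In all 269 barcodes with Cd3d and Sox13, whatever else they carried, it was 68.7 CPM, and 35.0% were positive after thinning. Of their thinned Pdcd1 UMIs, 40.2% were in 15 barcodes with 3 or more. By suffix Pdcd1 was 26.7 CPM in suffix 1 and 95.2 CPM in suffix 2. The intervals did not overlap, but they do not cover such clumping. With barcodes of more than 1 gate kept in every gate they pass, the log2 ratio of the gamma-delta T gate to the ILC2 gate was 1.33. Icos ran differently over the same barcodes, at 519 CPM in the ILC2 and DN2/DN3 combination, 153 CPM where the gamma-delta T gate was passed as well, and 9.52 CPM in the gamma-delta T and DN2/DN3 combination. Barcodes that passed no gate had Icos at 355 CPM and ILC2 markers at 515 CPM.

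**Figure D3:**
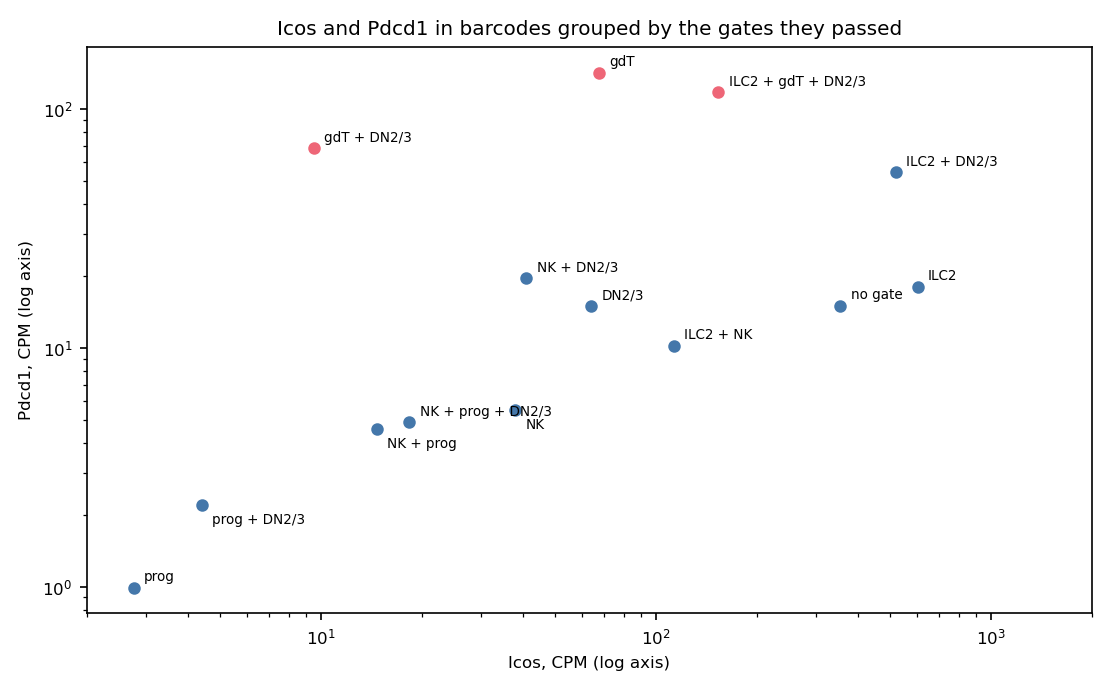
Icos against Pdcd1, both in CPM on log axes, with 1 point for each set of gates passed by at least 30 barcodes. Red marks sets that include the gamma-delta T gate, where Pdcd1 lies between 68.5 and 142 CPM. The points share libraries, so no correlation is given.

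Lag3, whose product binds MHC class II, marked the NK/ILC1 gate. It stood at 43.1 CPM (39.6 to 46.7) there, 7.87 CPM (6.80 to 9.07) in the progenitor gate, 4.05 CPM (3 UMIs) in the gamma-delta T gate, 3.21 CPM in the DN2/DN3 gate and 1.94 CPM in the ILC2 gate. The intervals of the gamma-delta T, DN2/DN3 and ILC2 gates overlapped. Within the NK/ILC1 gate Lag3 was 22.6 CPM in suffix 1 against 72.6 CPM in suffix 2, and its thinned detection 13.9% and 37.1%. Thinned detection over both suffixes was 23.7% there and 4.22% in the progenitor gate, against 31.4% and 20.5% before thinning. In the ILC2 gate it was 6.54 CPM in suffix 1 and 0.660 CPM in suffix 2, so the NK/ILC1 level was 1.79 above the ILC2 level on the log2 scale within suffix 1 and 6.78 within suffix 2. NK/ILC1 markers were higher in the ILC2 gate of suffix 1, as given above, and their part in this gap was not tested. With the suffixes pooled, Lag3-positive NK/ILC1 barcodes had Xcl1, a gate gene, at 2824 CPM against 1718 CPM in the rest. Xcl1 itself was 1255 CPM in suffix 1 and 3122 CPM in suffix 2 of this gate. The part of the suffixes in that contrast was not tested.

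Tigit, an inhibitory receptor of T and NK cells that shares its ligands with CD226, was near the limit of detection. It had 2 UMIs in all kept barcodes, both in the NK/ILC1 gate of suffix 2. The count of 0 in the ILC2 gate allows up to 0.194 CPM (3 counts). Klrg1, a C-type lectin that binds cadherins, stood at 6.46 CPM (5.26 to 7.86) in the ILC2 gate, with 4.76 CPM in suffix 1 and 6.93 CPM in suffix 2. It was 2.34 CPM (1.60 to 3.30) in the NK/ILC1 gate, had 2 UMIs in the progenitor gate, and had 0 in the gamma-delta T gate, which allows up to 4.05 CPM, and in the DN2/DN3 gate, which allows up to 0.643 CPM. After thinning, 4.13% of ILC2-gate barcodes had a Klrg1 UMI and 95.5% of these had Icos, against 91.2% of those without, with overlapping intervals.

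Tnfrsf9, which encodes 4-1BB, was highest in the NK/ILC1 gate at 120.0 CPM (114 to 126), with 149 CPM in suffix 1 and 78.2 CPM in suffix 2. The NK/ILC1 markers were 6433 and 3696 CPM in the same barcodes. Gzma was the most abundant of them in suffix 1 and Ccl5 in suffix 2. In thinned barcodes of this gate without Icos, Gzma alone was 4214 and 845 CPM, of marker sums of 7344 and 3768.5 CPM. The gate genes ran the other way, with Xcl1 at 1255 and 3122 CPM and Nkg7 at 928 and 1679 CPM. Tnfrsf9 was 21.2 CPM in the ILC2 gate, 11.4 CPM in the DN2/DN3 gate, 1.35 CPM (1 UMI) in the gamma-delta T gate and 0.577 CPM in the progenitor gate. The ILC2 and DN2/DN3 values hide wide gaps between suffixes. Tnfrsf9 was 70.7 CPM (62.0 to 80.3) in suffix 1 and 7.43 CPM (5.97 to 9.13) in suffix 2 of the ILC2 gate. The DN2/DN3 gate had it at 22.8 CPM (50 UMIs) against 1.22 CPM (3 UMIs), beside NK/ILC1 markers at 2163 against 607 CPM. Those marker sums were mostly Gzma, at 1132 of 1340 CPM in this gate over both suffixes. After thinning, 24.9% of ILC2-gate barcodes of suffix 1 had a UMI and 3.20% of those of suffix 2, against 31.6% and 4.13% before thinning. In suffix 1 the positive barcodes had NK/ILC1 markers at 2118 CPM and the negative ones at 1015 CPM. In suffix 2 these values were 451 and 69.9 CPM. The 145 barcodes that passed both the ILC2 and NK/ILC1 gates had Tnfrsf9 at 154 CPM and Icos at 113 CPM. The part of NK/ILC1 transcripts in the ILC2-gate signal was not tested.

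Tnfrsf18, which encodes GITR, was present in both innate gates. It stood at 129 CPM (124 to 135) in the ILC2 gate, 72.1 CPM (67.7 to 76.8) in the NK/ILC1 gate, 27.0 CPM (16.5 to 41.7) in the gamma-delta T gate, 14.8 CPM in the DN2/DN3 gate and 8.29 CPM in the progenitor gate. Suffix 2 was higher in both innate gates, at 155 against 36.0 CPM in the ILC2 gate and 110.2 against 45.9 CPM in the NK/ILC1 gate. The order of those gates turned with the suffix. The log2 ratio of NK/ILC1 over ILC2 was 0.35 (0.05 to 0.66) within suffix 1 and -0.49 (-0.63 to -0.36) within suffix 2. Thinned detection in the ILC2 gate was 18.0% in suffix 1 and 51.0% in suffix 2 (31.1% and 65.7% before thinning). The progenitor gate had 5.80% after thinning and 22.3% before it. Tnfrsf4, its neighbour on chromosome 4, which encodes OX40, was also highest in the ILC2 gate, at 5.49 CPM (4.39 to 6.79), with 1.49 CPM in suffix 1 and 6.60 CPM in suffix 2. It was between 0.783 and 1.35 CPM in the other gates, where counts were 1 to 19 UMIs.

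**Figure D4:**
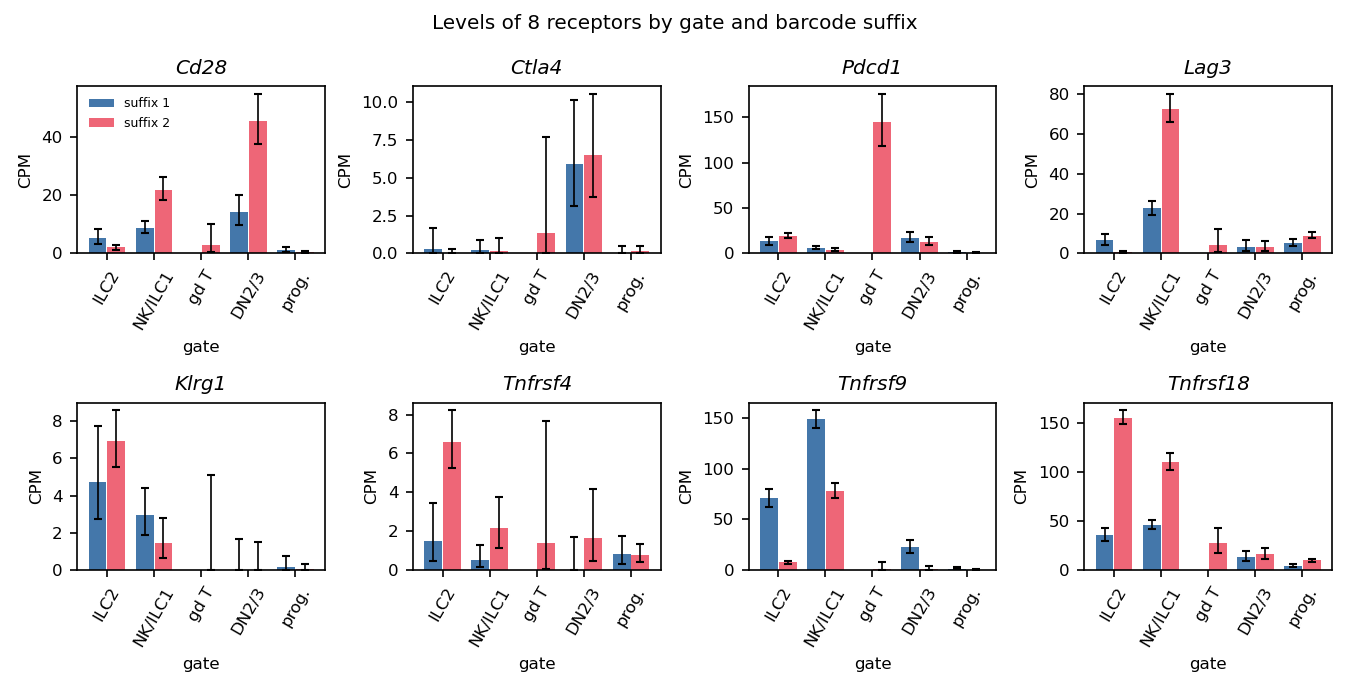
Levels in CPM of 8 of the receptors in each gate, with bars for suffix 1 and suffix 2 and 95% Poisson error bars for counting error only. Each panel has its own axis, Tigit is left out with 2 UMIs in all, and the gamma-delta T gate of suffix 1 (1 barcode) is not drawn. Tnfrsf9 is higher in suffix 1 and Tnfrsf18 in suffix 2 of both innate gates.

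Counted together, most receptors with enough UMIs differed between gates by more than 2-fold. A gene entered such a count with at least 20 UMIs summed over the gates compared. A gene rare in 1 gate therefore entered only through the other, which favours a call past 2-fold. The receptors were also chosen with earlier results of these data known, so the counts are descriptions only. Of 8 receptors measured between the ILC2 and progenitor gates, 7 were more than 2-fold higher in the ILC2 gate, where 13.9% of all genes measured were. Among these 7, Klrg1 (2 UMIs), Tnfrsf9 (14), Cd28 (16) and Tnfrsf4 (19) had fewer than 20 UMIs in the progenitor gate. Lag3 was more than 2-fold lower, as were 17% of all genes. The median log2 ratio of the 8 was 4.07, and that of all 11598 genes measured was -0.11. Within suffix 1 the higher ones were 5 of 6 measured, against 11.9% of all genes, and Lag3 had a log2 ratio of 0.27. Between the DN2/DN3 and progenitor gates 5 of 8 were higher (Icos, Cd28, Ctla4, Pdcd1 and Tnfrsf9), against 5.51% of all genes, and Lag3 was lower, against 6.8%. Here Cd28 (16), Ctla4 (3) and Tnfrsf9 (14) had fewer than 20 UMIs in the progenitor gate, and Lag3 (15) in the DN2/DN3 gate. Within suffix 1 the higher ones were 5 of 6 measured (Icos, Cd28, Pdcd1, Tnfrsf9 and Tnfrsf18), against 4.05%, and 0 were lower, against 4.8%. Within suffix 2 they were 3 of 5 (Icos, Cd28 and Pdcd1), against 6.13%, and Lag3 was lower, against 7.89%, with too few UMIs of Ctla4 and Tnfrsf9. The progenitor gate of suffix 1 had fewer than 20 UMIs of Icos (17), Cd28 (9), Pdcd1 (13) and Tnfrsf9 (10), which bears on both counts within suffix 1. That of suffix 2 had 7 of Cd28 and 11 of Pdcd1, and the DN2/DN3 gate of suffix 2 had 8 of Lag3.

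Relative to the ILC2 gate, the NK/ILC1 gate had Cd28, Lag3 and Tnfrsf9 more than 2-fold higher, 3 of 8 measured, against 7.32% of all genes. Icos, Pdcd1, Klrg1 and Tnfrsf4 were more than 2-fold lower, 4 of 8, against 9.82%. Within suffix 1 only Lag3 and Tnfrsf9 were higher, 2 of 7 measured against 4.11% of all genes, and only Icos and Pdcd1 lower, against 8.34%. Cd28 had a log2 ratio of 0.71 and Klrg1 one of -0.68 there, and Tnfrsf4 had too few UMIs. Within suffix 2 the higher 3 and the lower 4 were those of both suffixes together, against 8.11% and 9.74% of all genes. Over both suffixes Tnfrsf4 had 16 UMIs in the NK/ILC1 gate. Within suffix 2 Klrg1 had 8 and Tnfrsf4 12 in that gate, and Lag3 had 8 in the ILC2 gate. In the gamma-delta T gate relative to the ILC2 gate, 2 of 8 were higher, against 6.82% of all genes, and 4 were lower (Icos, Tnfrsf4, Tnfrsf9 and Tnfrsf18), against 9.22%. Of the higher 2, Pdcd1 had a log2 ratio of 2.98 (2.64 to 3.31), and Lag3 one of 1.07 (-1.29 to 2.75) that rests on 3 UMIs. Within suffix 2 Pdcd1 alone was higher, 1 of 7 measured against 6.21%, and the same 4 were lower, against 9.55%. Tnfrsf4 and Tnfrsf9 had 1 UMI each in the gamma-delta T gate, with log2 ratios of -2.02 (-7.34 to 0.49) and -3.97 (-9.28 to -1.48).

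**Figure D5:**
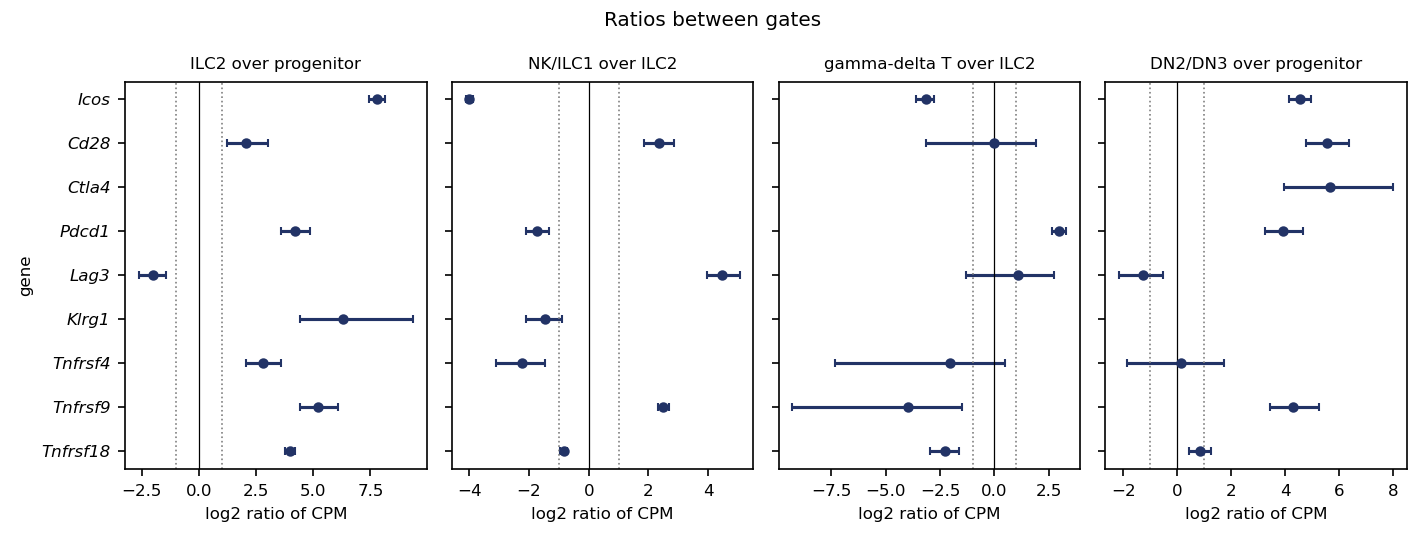
Log2 ratio of CPM for each receptor with a ratio, in the 4 pairs of gates, with 95% conditional exact bars for counting error only. The solid line marks equal levels and the dotted lines a 2-fold difference. Receptors without a point had too few UMIs or a count of 0.

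Between suffixes Tnfrsf18 was higher in suffix 2 in the 4 gates with both, while Cd28 and Lag3 had opposite directions in the ILC2 and NK/ILC1 gates. In the ILC2 gate Tnfrsf4 and Tnfrsf18 were more than 2-fold higher in suffix 2 (2 of 8 measured, against 7.21% of all genes), and Cd28, Lag3 and Tnfrsf9 lower (3 of 8, against 5.99%). For the NK/ILC1 gate, Cd28, Lag3 and Tnfrsf18 were higher in suffix 2 (3 of 7, against 11.5%), and Klrg1 was lower (1 of 7, against 6%), with an interval that reached past no difference (-2.42 to 0.15 on the log2 scale). In the progenitor gate Tnfrsf18 was higher (1 of 4, against 3.15%) and Pdcd1 lower (1 of 4, against 1.66%). In the DN2/DN3 gate Cd28 was higher (1 of 6, against 5.1%) and Tnfrsf9 lower (1 of 6, against 2.34%). In the DN2/DN3 gate Tnfrsf18 was 16.2 against 13.2 CPM, where the intervals overlapped. Tnfrsf9 was lower in suffix 2 in the same 4 gates, with 14 UMIs in the progenitor gate. Icos differed by at most 0.37 on the log2 scale. No label ties a suffix to a library, and each stage has 1 library. Differences between suffixes therefore cannot be divided between a library and whatever its cells differed in.

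Within the ILC2 gate, Tnfrsf18 divided with Il1rl1, the IL-33 receptor gene of mature ILC2. After thinning it was detected in 54.2% (50.3 to 58.0%) of the 670 barcodes with Il1rl1 and 29.9% (25.4 to 34.7%) of the 395 without. The gap held within suffix 1 (38.5% of 26 against 14.7% of 163) and suffix 2 (54.8% of 644 against 40.5% of 232), with overlapping intervals in suffix 1. Icos was detected in 95.5% and 84.3%, with 96.2% against 74.2% in suffix 1 and 95.5% against 91.4% in suffix 2, where the intervals overlapped in each suffix. Tnfrsf9 was detected in 2.69% and 14.4%, with 15.4% against 26.4% in suffix 1 and 2.17% against 6.03% in suffix 2, where the intervals overlapped in each suffix. Barcodes with Mki67, a gene of cycling cells, had Tnfrsf18 in 36.5% and Icos in 87.5%, against 50.5% and 93.8% of those without. Within suffix 2 the Icos shares were 92.1% and 95.6% and within suffix 1 they were 76.3% and 78.9%, with overlapping intervals in each. The Tnfrsf18 intervals also overlapped within each suffix. Barcodes with Zbtb16, which encodes PLZF, a factor of ILC precursors, had Pdcd1 in 12.5% (7.81 to 18.6%) against 7.07% (5.49 to 8.94%), with the same direction in suffix 1 (11.3 against 4.41%) and suffix 2 (13.1 against 7.54%). All these intervals overlapped. ILC2-gate barcodes with Pdcd1 had Blk at 20.5 CPM against 0.293 CPM in those without, and Blk was at 0 in both within suffix 1. Their gamma-delta T markers summed to 654 against 658 CPM. The 12 barcodes with 3 or more Pdcd1 UMIs held these markers at 1196 CPM. The part of gamma-delta T transcripts in the Pdcd1 signal was not tested. Barcodes with Ly6a, which encodes Sca-1, had Tnfrsf18 in 54.6% against 36.7% within suffix 2, and in 20.5% against 17.3% within suffix 1.

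Most ILC2-gate barcodes carried 1 or 2 of the 10 receptors. After thinning, 46.2% had 1, 41.5% had 2, 9.77% had 3 or more and 2.54% had none. In the NK/ILC1 gate 18.4% had none and 10.3% had 3 or more, and in the progenitor gate 86.4% had none. With Icos left out the order turned. Another receptor was detected in 54.7% of the ILC2 gate and 75.5% of the NK/ILC1 gate. These shares were 43.4% and 70.4% in suffix 1, and 57.2% and 82.4% in suffix 2. Among ILC2-gate barcodes, Tnfrsf18 was detected in 45.7% with Icos and 39.1% without, but within suffix 1 in 16.4% and 23.3% and within suffix 2 in 50.9% and 53.1%, with overlapping intervals each time. Tnfrsf9 was detected in 4.93% with Icos and 29.3% without, which was 17.1% against 51.2% within suffix 1 and 2.78% against 10.2% within suffix 2, where the intervals overlapped. Pdcd1 was detected in 6.78% with Icos and 19.6% without, or 7.26% against 24.5% within suffix 2 and, with overlapping intervals, 4.11% against 13.95% within suffix 1. It was present in 22.7% of barcodes with Tnfrsf9 and 6.77% of those without, or 35.7% against 7.31% within suffix 2, while the intervals overlapped within suffix 1 (14.9% against 3.52%).

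Genes whose levels ran most like Icos were sought among 9461 genes by Pearson's r of log2(CPM + 1) over 10 profiles, the 5 gates in each suffix. The highest were Pxdc1, Axin2 and Mdfic (r = 0.97 each), and Gatsl3 and Arg1 (r = 0.96 each). Pxdc1 was 303 CPM in the ILC2 gate, 46.0 CPM in the gamma-delta T gate and 0.701 CPM in the progenitor gate. Axin2, a target of Wnt signalling, ran from 40.0 CPM in the ILC2 gate to 1.07 CPM in the progenitor gate. Arg1, which encodes arginase 1, an enzyme of ILC2, ran from 125 to 0.124 CPM. Without the gamma-delta T profile of suffix 1, which is 1 barcode, the 5 were Pxdc1, Xlr4b, Fam83a, Mllt3 and Arg1, so 2 of the 5 stayed. Nearest to Tnfrsf18 were Gstp3, Skil and Ptpn22 (r = 0.98 each), and nearest to Lag3 were Tnni1, Arap3 and Sh3bp2 (r = 0.97, 0.95 and 0.93). Without the 1-barcode profile all 3 neighbours of Tnfrsf18 were replaced, by Lgalsl, Shisa5 and Myl12b, and Ugcg replaced Sh3bp2 beside Lag3. Nearest to Tnfrsf9 were Klrb1b, Cd200r4 and Klrc1, the first and last of them NK receptor genes (r = 0.98, 0.98 and 0.97), at 159, 49.0 and 218 CPM in the NK/ILC1 gate and 27.8, 4.84 and 15.6 CPM in the ILC2 gate. The profiles share libraries, and r describes only these points.

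Other receptors of the same kind, 19 of them in the table, did not all follow the ILC2 gate. Relative to the progenitor gate 8 were more than 2-fold higher in the ILC2 gate (13.9% of all genes were) and 7 lower (17%), with a median log2 ratio of 0.55 against -0.11 for all genes. Of the higher ones, Btla (8), Cd226 (6) and Cd2 (9) had fewer than 20 UMIs in the progenitor gate. Among the lower, Havcr2 (1), Slamf6 (4), Lair1 (15), Cd6 (16) and Cd5 (19) had fewer than 20 in the ILC2 gate. Tnfrsf25 (DR3), the receptor of TL1A, was 147 CPM in the ILC2 gate, 192 CPM in the gamma-delta T gate, 26.6 CPM in the NK/ILC1 gate and 1.24 CPM in the progenitor gate. Cd160, an NK receptor, was 803 CPM in suffix 1 and 614 CPM in suffix 2 of the NK/ILC1 gate. It was 424 against 21.5 CPM in the ILC2 gate, so that its log2 ratio to the progenitor gate was 1.95 within suffix 1 and -1.43 within suffix 2. The DN2/DN3 gate had 129.7 against 29.6 CPM. Cd2, an adhesion and costimulatory receptor, was 160 CPM in the NK/ILC1 gate (85.5 in suffix 1, 269 in suffix 2), 74.3 CPM in the gamma-delta T gate and 0.371 CPM in the progenitor gate. Cd27, a receptor of the tumour necrosis factor family, was highest in the progenitor gate at 147 CPM and 70.0 CPM in the ILC2 gate. In the DN2/DN3 gate relative to the progenitor gate 8 of 18 measured were higher (5.51% of all genes) and 1 lower (6.8%). Relative to the ILC2 gate 5 of 17 were higher in the NK/ILC1 gate (7.32%) and 3 lower (9.82%), and in the gamma-delta T gate 4 of 15 were higher (6.82%) and 3 lower (9.22%).

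Ligands of these receptors were low, apart from a few. Of 16 in the table, 11 could be compared between the ILC2 and progenitor gates, where 5 were more than 2-fold higher (13.9% of all genes were) and 1 lower (17%). Icosl, the ligand of ICOS, was among the higher, at 3.55 against 0.454 CPM. Icosl had 11 UMIs in the progenitor gate, and Nectin2, the lower one, had 3 in the ILC2 gate. Cd274 and Pdcd1lg2, which encode the ligands of PD-1, were 9.95 against 3.88 CPM and 14.5 against 1.57 CPM. Lgals3, a galectin that binds LAG-3 among many glycoproteins, was 240 CPM in the ILC2 gate, 896 CPM in the NK/ILC1 gate (519.96 in suffix 1, 1440 in suffix 2) and 5.24 CPM in the progenitor gate. Cd48, the ligand of CD2 and CD244, was 342 CPM in the NK/ILC1 gate, 357 CPM in the gamma-delta T gate, 159 CPM in the ILC2 gate and 239.7 CPM in the progenitor gate. Tnfsf18, the ligand of GITR, had 0 UMIs in all 5 gates. Relative to the ILC2 gate, 3 of 10 ligands were higher in the NK/ILC1 gate (7.32% of all genes) and 0 lower (9.82%). In the gamma-delta T gate 2 of 8 were higher (6.82%) and 3 lower (9.22%), the latter including Cd274 with 2 UMIs and Pdcd1lg2 with 4 there. Relative to the progenitor gate 4 of 10 were higher in the DN2/DN3 gate (5.51%) and 0 lower (6.8%).

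Of 29 signalling genes downstream of the receptors, 9 were more than 2-fold higher in the ILC2 gate than in the progenitor gate (13.9% of all genes were) and 2 lower (17%), and 18 lay within 2-fold. The median log2 ratio was 0.69. The higher ones included Prkcq, Traf1, Traf5, Nfkb2, Relb and Nfkbia. Nfkbia, which encodes an inhibitor of NF-kB, was 304 CPM in the ILC2 gate, 241 CPM in the NK/ILC1 gate and 42.8 CPM in the progenitor gate. The lower ones were Lck, the kinase that starts T-cell receptor signalling, at 59.4 against 151 CPM, and Ptpn6, the phosphatase SHP-1, at 44.5 against 124 CPM. Lck was highest in the DN2/DN3 gate at 291 CPM. Grb2, an adaptor bound by CD28, was 194 CPM in the ILC2 gate and 195 CPM in the progenitor gate. Relative to the ILC2 gate, the NK/ILC1 gate had 4 of 29 higher (7.32% of all genes) and 4 lower (9.82%). The gamma-delta T gate had 3 of 29 higher (6.82%) and 1 lower (9.22%), near the shares over all genes. Relative to the progenitor gate 6 of 29 in the DN2/DN3 gate were higher (5.51%) and 0 lower (6.8%). By suffix that count of higher genes was 1 of 27 in suffix 1 (4.05%) and 7 of 29 in suffix 2 (6.13%).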

How the data were processed

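DN1 cells of embryonic thymus were profiled as 10x 3' v3 libraries, per the labels' protocols. The authors deposited raw UMI counts, whole numbers for each gene in each barcode. The submitters' processing notes name GRCm38, STAR and Cell Ranger 3.0.2; how barcodes were called as cells is not stated there. Genes of the T-cell receptor did not enter any value: Trdc and Tcrg-C1 were listed as gamma-delta T markers, but neither has a row in the table. The table carries barcode suffixes but no sample names, so counts were pooled or split by suffix.

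A barcode was kept with at least 500 genes and at most 10% of its UMIs from mitochondrial genes, which removed 35 of suffix 1 and 507 of suffix 2. Also removed were 99 doublets called by Scrublet per suffix (scanpy 1.11.5), 9 in suffix 1 and 90 in suffix 2. Kept barcodes held 99036443 UMIs. Gates needed 1 UMI of both genes. UMIs were summed per gate and divided by the gate total to give CPM, with exact Poisson intervals. Ratios carry conditional exact (Clopper-Pearson) intervals and shares exact binomial ones, all at 95%, computed with scipy 1.17.1 in Python 3.11.15. The scripts were tested on simulated data. A gene was called past 2-fold with at least 20 UMIs in the gates together, with counts of 0 set to 3 counts. Thinning to 6970 UMIs, the 10th percentile of kept barcodes, left out 542 shallower barcodes. Splits within a gate and co-detection used the thinned counts.

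Named genes are the 10 receptors, the gate genes, the 5 genes most like Icos and the 3 most like each of the next 3 receptors by total UMIs (at least 200 UMIs in the gates), the 4 most abundant of each further list, and the genes used for splits. Others, such as Icosl, Prkcq, Blk and Cd8b1, were named after their values were seen. The receptors and lists were chosen with earlier results of these data known. Alternatives changed the gate threshold, overlaps, doublets, filters, scaling, averaging, thinning, epithelial barcodes and suffix.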

Additional observations from a re-analysis of the deposited data

Results flagged for a closer look

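Tnfrsf18 in the NK/ILC1 gate over the ILC2 gate had a log2 ratio of 0.35 within suffix 1 and -0.49 within suffix 2, so the suffixes point in opposite directions. The difference between them was not tested. The NK/ILC1 markers in the ILC2 gate were 1043 CPM in suffix 1 against 77.0 CPM in suffix 2; their part in it was not tested.

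Tnfrsf18 was also found in barcodes outside the comparisons. The 542 barcodes that failed the filters had 195 Tnfrsf18 UMIs, a level of 187 CPM (162 to 216), above the 129 CPM of the ILC2 gate, which is the highest gate. Of these UMIs, 193 were in suffix 2, where the level was 193 CPM (166 to 222) against 155 CPM (148 to 162) in the ILC2 gate. The same barcodes had Icos at 503 CPM (461 to 548).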

How the results depend on the processing

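Each ratio and count was recomputed with gates at 2 UMIs, with barcodes of more than 1 gate kept in each gate they pass, with doublets kept, without or with a stricter barcode filter, with trimmed-mean scaling, as a mean of per-barcode CPM, after thinning, without barcodes holding epithelial UMIs, within each suffix, and for counts without the minimum of UMIs. All 43 values of the Icos ratios stayed on the same side of 0, and 37 of them moved by less than counting error. With barcodes of more than 1 gate kept, the log2 ratio of Icos was 6.44 for ILC2 over progenitor, -3.36 for NK/ILC1 over ILC2 and 3.76 for DN2/DN3 over progenitor. With gates at 2 UMIs it was -4.94 for gamma-delta T over ILC2 and 3.36 for DN2/DN3 over progenitor, and within suffix 1 it was -3.86 for NK/ILC1 over ILC2. The number of receptors past 2-fold within suffix 1 was 5 for ILC2 over progenitor and 4 for NK/ILC1 over ILC2. There Tnfrsf4 missed the minimum of UMIs in both pairs and Klrg1 in the first, while Lag3 in the first and Cd28 and Klrg1 in the second lay within 2-fold. The gamma-delta T gate gave no value within suffix 1, which had 1 barcode. Of 300 values for the other receptors 284 stayed on the same side of 0, and 6 changed sign against a ratio past 2-fold. Lag3 had 0.27 for ILC2 over progenitor within suffix 1, 0.0474 for DN2/DN3 over progenitor after thinning, and for gamma-delta T over ILC2 -0.76 with barcodes of more than 1 gate kept and -0.33 as a mean of per-barcode CPM. Tnfrsf4 in gamma-delta T over ILC2 had 0.26 with gates at 2 UMIs and 0.76 after thinning, both with a gamma-delta T count of 0 set to 3 counts. The cause of the other changes was not tested. Pdcd1 in gamma-delta T over ILC2 had 1.33 with barcodes of more than 1 gate kept. Trimmed-mean scaling subtracted -0.11 from each log2 ratio of ILC2 over progenitor, which raised it. For the other pairs the subtracted value was less than 0.1 in size. Free RNA was not removed, and 1 UMI in the gamma-delta T gate is 1.35 CPM, so low values there are not resolved. No paired analysis was possible because each stage has 1 library and no result comes from a test.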
